A study of Mus musculus with 21 samples.

Results

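This account follows 37 interferon response genes through normal mouse liver and through liver tumours of 2 origins. A gene was a member when a non-control probe on the array carried its symbol, which gave 49 probes among the 39429 non-control probes. For each gene the probe with the highest mean signal was used. All 37 members were among the 21751 genes tested, and 48 of their 49 probes passed the filter on dim probes (well above background in 4 or more arrays). The arrays held RNA of 4 kinds of C57BL/6J sample kept free of pathogens. There were 4 livers of untreated Trp53 wt mice (WT livers) and 4 livers of untreated Trp53 ko mice (KO livers). There were 7 hepatocellular carcinomas of Trp53 wt mice that had received 10 µg/g N-nitrosodiethylamine, a liver carcinogen, into the peritoneum at day 15 (DEN tumours). The remaining 6 samples were tumours of untreated Trp53 ko mice that the labels call HCC/CCC, a mixed hepatocellular and cholangiocellular type (KO tumours). From the sample titles the DEN tumours were read as those of 5 mice and the KO tumours as those of 5 mice, and tumours of 1 mouse were averaged, so that n is 4, 4, 5 and 5 mice. The DEN tumours thus differ from the WT livers in carcinogen treatment as well as in being tumours. Sex, age, the exons removed and the cells lacking Trp53 are not stated in the sources used.

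Levels are log2 signals scaled to each array's 75th percentile, so that 0 is a signal at that percentile. Before scaling, that percentile was 512 to 884 in DEN tumours, against 499.6 to 685 in KO livers, 476 to 729 in WT livers and 951 to 4258 in KO tumours, in arbitrary units. Precision is limited by how many arrays there were. Each slide held 1 group, so slide and group cannot be told apart. Scan day 1 held 3 DEN tumours, 3 KO tumours and all 4 KO livers, while the WT livers were alone on scan day 4. The Trp53 probe was well above background in 7 of 7 DEN tumours, 4 of 4 WT livers, 1 of 4 KO livers and 5 of 6 KO tumours, with levels of -2.75 to -2.48, -3.85 to -3.31, -6.47 to -4.91 and -5.35 to -4.13. All 12 hepatocyte markers examined were above background on every array. Transcripts of the Y chromosome were above background in all mice but KO tumour mice 1 and 2.

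Interferons are secreted when cells sense foreign or misplaced nucleic acid. Type I and type III interferons signal through the kinases Jak1 and Tyk2 to a complex that holds Stat2 and Irf9, which binds the interferon-stimulated response element (ISRE) before a large set of antiviral genes, whereas interferon gamma acts through the gamma-activated site (GAS). Hepatocytes, bile duct cells, endothelium and immune cells of the liver can all respond, and in whole tissue fewer cells of a type and less RNA per cell cannot be told apart.

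The element that names this gene class was visible in the members' own promoters. In the 250 bases before the RefSeq start sites (build GRCm38.p6), the ISRE core, GAAA and GAAA again after any 2 bases on either strand, was found in 14 of the 29 members that the promoter table held, against 3.46% of all 27025 genes in it. The GAS pattern TTCNNNGAA, which equals its own reverse complement, was found in 7 of the 29 members and in 8.13% of all genes. The table held no entry for Parp14, Mx1, Dhx58, Oas2, Usp18, Iigp1, Zbp1 and Mx2. A match is a run of letters and not a shown binding site. Among the members of the table without an ISRE core match were Ifi44, Ifih1, Eif2ak2, Tap1 and Xaf1. The stretches below come only from members with a match, and those of Bst2, Oas1g, Oas3 and Stat2 are not shown. They are written 5′ to 3′ on the strand of the gene and have the ISRE core matches in capitals. A match on the opposite strand reads TTTC, any 2 bases and TTTC.
Isg15, chr4:156200850-156200921, minus strand: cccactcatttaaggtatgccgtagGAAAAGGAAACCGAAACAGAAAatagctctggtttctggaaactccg
Oas1a, chr5:120907526-120907570, minus strand: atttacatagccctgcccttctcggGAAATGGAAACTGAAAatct
Ifit1, chr19:34640760-34640838, plus strand: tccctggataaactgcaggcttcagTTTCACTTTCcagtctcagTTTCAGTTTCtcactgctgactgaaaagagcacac
Ifit3, chr19:34583348-34583441, plus strand: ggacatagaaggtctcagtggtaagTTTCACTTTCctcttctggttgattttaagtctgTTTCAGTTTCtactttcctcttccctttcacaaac
Rsad2, chr12:26456538-26456597, minus strand: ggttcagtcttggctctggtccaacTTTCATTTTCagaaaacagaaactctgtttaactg
Igtp, chr11:58199497-58199555, plus strand: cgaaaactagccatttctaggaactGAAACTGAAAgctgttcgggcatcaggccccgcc
Irgm2, chr11:58214888-58214947, plus strand: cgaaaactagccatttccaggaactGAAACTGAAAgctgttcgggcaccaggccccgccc
Irgm1, chr11:48871421-48871475, minus strand: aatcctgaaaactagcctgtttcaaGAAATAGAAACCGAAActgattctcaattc
Gbp2, chr3:142620579-142620638, plus strand: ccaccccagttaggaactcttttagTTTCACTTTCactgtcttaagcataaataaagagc
Gbp3, chr3:142559974-142560039, plus strand: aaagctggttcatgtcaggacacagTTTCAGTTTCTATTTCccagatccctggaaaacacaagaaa
Isg15 has 3 overlapping matches, the first beginning 78 bases before the start site, and Oas1a has 2 overlapping matches that begin 20 bases before it. The neighbouring genes Igtp and Irgm2 carry the same match within almost the same stretch. The DEN tumours were called above WT livers in 8 of the 14 members with a match. They were so called in 9 of the 15 members of the table without one, where 10.7% of all genes were called. The 8 include Oas1g, which was above background in no liver array. The KO tumours lay below DEN tumours in 10 of 14 (71.4%) and in 6 of 15 (40%), where 36.4% of all genes were called; the difference between members with and without a match was not tested.

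**Figure D1:**
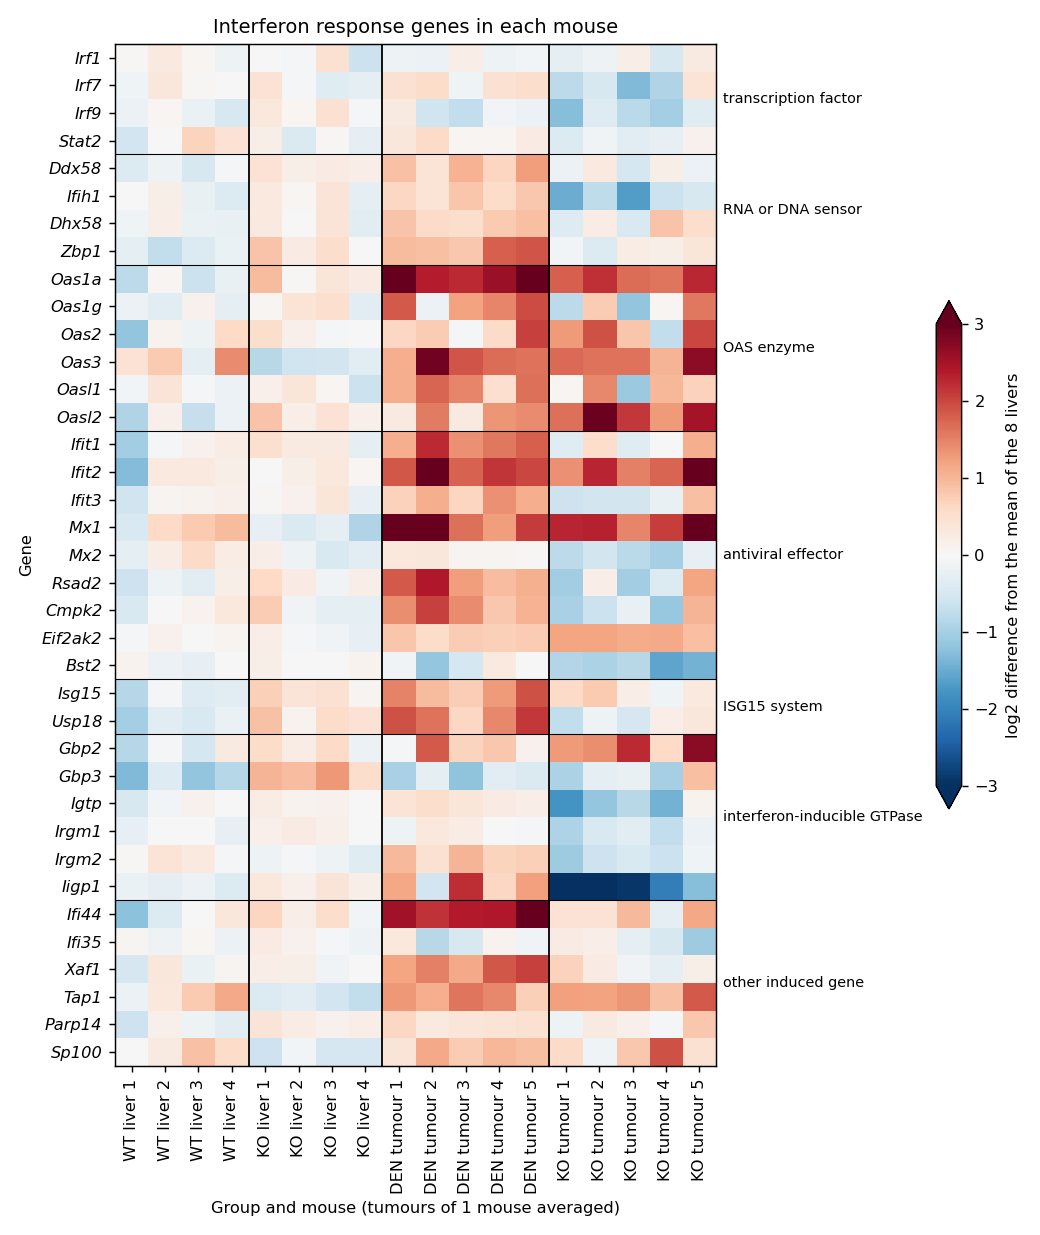
Each row is a member, grouped by role, and each column a mouse; colour is the log2 difference from the mean of the 8 livers, with colours saturated beyond 3. The 5 DEN tumour columns are red for most members, whereas the KO tumour columns mix red rows (Oas1a, Oasl2, Ifit2, Mx1, Eif2ak2) with blue rows (Iigp1, Ifih1, Bst2).

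Most of the module stood higher in DEN tumours than in the livers of untreated wild-type mice. A limma model of 4 group means called 22 of 37 members higher (59.5%) and 0 lower at an adjusted p under 0.05, where 10.7% of all genes were called higher and 11.4% lower; at an unadjusted p under 0.05 there were 25 higher and 0 lower. The median change of the members was 0.98 on the log2 scale, against 0.03 over all genes, and the mice of both groups did not overlap for 21 members (56.8%), against 24.4% of all genes. Because the WT livers had a slide and a scan day of their own, a model with the slide as a random block was also fitted. It took every array as a sample, so tumours of 1 mouse were not averaged in it. That model kept 5 of the 22 (Oas1a, Isg15, Usp18, Ifi44 and 1 of the 2 Xaf1 probes). Without WT liver mouse 1 it was 13 of the 22, and without the DEN tumours of scan day 2 it was 14. Of all 21751 genes these fits, in the same order, called 304, 1685 and 1401 higher, against 2324 in the main fit. The 22 include Oas1g, whose rise is not shown because it was above background in no liver array.

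KO tumours showed no such common shift from KO livers. Of the 37 members, 9 were higher (24.3%) and 8 lower (21.6%), close to the 22.7% and 29.9% of all genes called, with a median change of -0.07 against -0.20 over all genes. The mice did not overlap for 13 members (35.1%), against 43.8% of all genes. Scaling by normexp and quantiles turned the split into 9 higher and 4 lower, a slide block gave 7 and 3, and without KO tumour mouse 5 it was 9 and 13. Of all 21751 genes these fits, in the same order, called 5656 higher and 5431 lower, 2867 and 3724, and 4946 and 6120.

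Set directly against each other, the 2 kinds of tumour differed in 24 members. In KO tumours 21 members were lower than in DEN tumours (56.8%) and 3 were higher (8.11%), where 36.4% of all genes were called lower and 20.8% higher. The median member change was -0.85 and that of all genes -0.29, a general shift that became -0.02 after quantile scaling, with 17 members lower and 3 higher. The mice did not overlap for 12 members (32.4%), against 31.6% of all genes. Within scan day 1, 20 of the 21 lower calls were shared (Irgm1 was not) and Irf9 was added. Oasl2 and Gbp2 kept their higher call and Eif2ak2 did not. That fit called 6443 of all 21751 genes lower and 4720 higher. It lacks DEN tumour mice 2 and 3 and KO tumour mice 4 and 5, and mouse 5 had the highest module average of its group (0.76). Slide and group cannot be told apart within that day either. Values within scan day 1 given below have the same limits. A slide block kept 14 of the 21 lower calls and none of the 3 higher ones (Oasl2, Gbp2 and Eif2ak2). Of all 21751 genes it called 5690 lower and 2859 higher. The 21 lower calls of the main fit include Oas1g, which was above background in only 2 of 6 KO tumours.

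Averaged over the 37 members, the difference from the mean of the 8 livers was 0.94, 0.98, 0.77, 0.90 and 1.11 in the DEN tumour mice. It was -0.09, 0.32, -0.01, -0.02 and 0.76 in the KO tumour mice, while WT livers read -0.44, 0.05, -0.05 and 0.06 and KO livers 0.30, 0.08, 0.15 and -0.14. All 5 DEN tumour mice lay above every liver, whereas in the KO group mouse 5 stood above the other 4, and mice 1, 3 and 4 lay within the range of the livers. The 2 tumours of KO mouse 5 themselves differed, at 0.49 and 1.03, while the 2 tumours of DEN mouse 4 (0.92 and 0.88) and of DEN mouse 5 (1.23 and 0.99) were closer. The same average over all genes tested ran from -0.05 to 0.22 in DEN tumours and from -0.28 to 0.07 in KO tumours.

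Of the transcription factors that carry the interferon signal, none was called between DEN tumours and WT livers, whereas Irf7 was lower in KO than in DEN tumours and Irf9 lower in KO tumours than in KO livers. In DEN tumours Irf1, Irf7, Irf9 and Stat2 differed from WT livers by -0.13, 0.31, -0.06 and 0.12. Irf7, the factor that amplifies type I interferon production, was 0.03, 0.49, 0.19 and 0.17 in WT livers and 0.59, 0.11, -0.20 and -0.15 in KO livers, 0.62, 0.70, 0.03, 0.61 and 0.68 in DEN tumours and -0.62, -0.32, -1.16, -0.75 and 0.57 in KO tumours. Of the KO tumour mice only mouse 5 reached the DEN range. The KO tumours were lower than the DEN tumours, with a change of -0.98 ± 0.27 (SE; adjusted p = 0.005), and within scan day 1 the change was -1.53, whereas a slide block ended the call (-0.87, adjusted p = 0.11). Stat2, the partner that gives the ISRE-binding complex its activation domain, was 1.81, 2.36, 3.05 and 2.82 in WT livers, 2.54, 1.93, 2.41 and 2.08 in KO livers, 2.71, 2.94, 2.43, 2.44 and 2.63 in DEN tumours and 1.96, 2.26, 2.03, 2.12 and 2.5 in KO tumours. All 4 groups overlapped, and no comparison was called. Irf9, its DNA-binding partner, averaged 2.10 ± 0.40 (SD) in KO tumours and 3.08 ± 0.23 (SD) in KO livers, a change of -0.98 ± 0.24 (SE; adjusted p = 0.0024). That call ended with the slide as a block (-0.91, adjusted p = 0.068) and under normexp and quantile scaling (-0.49, adjusted p = 0.071). Irf1, a factor of the gamma interferon response, averaged 3.69 ± 0.16 (SD) in DEN tumours and 3.67 ± 0.33 (SD) in KO tumours; its change from KO liver to KO tumour was -0.03 and became 0.73 (adjusted p = 0.017) under normexp and quantile scaling.

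On the probe used for each gene, all 4 nucleic acid sensors rose from WT liver to DEN tumour and were lower in KO than in DEN tumours. A slide block ended all 4 calls against WT livers (adjusted p = 0.057 to 0.32) and that of Dhx58 between the tumours. Ifih1 (MDA5), which senses long double-stranded RNA, was 1.94, 2.13, 1.74 and 1.56 in WT livers and 2.59, 2.38, 2.79, 2.51 and 2.77 in DEN tumours. In KO livers it was 2.26, 2.02, 2.34 and 1.7, and in KO tumours 0.48, 1.2, 0.29, 1.31 and 1.48. Every KO tumour mouse lay below every other mouse of the study. The difference between KO and DEN tumours was -1.65 ± 0.23 (SE; adjusted p = 2.2e-05), and within scan day 1 it was -1.78. KO tumours were also below KO livers, with a change of -1.13 ± 0.24 (SE; adjusted p = 8.7e-04), and the DEN tumours exceeded WT livers by 0.77 ± 0.24 (SE; adjusted p = 0.031), a call that ended on leaving out any of 5 of the 18 mice. On this probe it was the single member called higher in one tumour type and lower in the other relative to its own liver, and the difference between both changes was -1.89 ± 0.34 (SE; adjusted p = 8.2e-04). A second, dimmer Ifih1 probe, above background on 1 of 4 KO liver and 5 of 6 KO tumour arrays, also gave a rise in DEN tumours (1.47 ± 0.28) and a lower level in KO than in DEN tumours (-1.48 ± 0.27), but its difference between KO tumours and KO livers was -0.13 ± 0.28 (adjusted p = 0.72 by limma over all probes). Ddx58 (RIG-I), the sensor of RNA with 5′ triphosphates, averaged 1.52 ± 0.20 (SD) in WT livers and 2.64 ± 0.33 (SD) in DEN tumours, a change of 1.11 ± 0.20 (SE; adjusted p = 9.0e-04). In KO livers it averaged 2.06 ± 0.12 (SD) and in KO tumours 1.71 ± 0.33 (SD), a change of -0.35 that was not called (adjusted p = 0.16). A second Ddx58 probe, above background on every array, was called in neither DEN tumours against WT livers (0.52 ± 0.29, adjusted p = 0.22) nor KO against DEN tumours (-0.08 ± 0.27, adjusted p = 0.82). Dhx58 (LGP2), a regulator of both sensors, rose by 0.81 ± 0.25 from WT liver to DEN tumour (adjusted p = 0.028) and was the weakest of the KO to DEN tumour differences in this role, at -0.58 ± 0.24 (adjusted p = 0.044), a call that ended without any of 11 of the 18 mice.

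The OAS enzymes make 2′-5′-linked oligoadenylates that activate the ribonuclease RNase L. Oas1a had the largest rise of any member from WT liver to DEN tumour. It was 0.26, 1.1, 0.40 and 0.83 in WT livers, 4.06, 3.41, 3.28, 3.64 and 4.77 in DEN tumours, 1.99, 1.08, 1.41 and 1.28 in KO livers and 2.83, 3.23, 2.72, 2.64 and 3.31 in KO tumours. Neither tumour group overlapped its livers, and the tumour groups overlapped by 1 KO mouse that passed the lowest DEN mouse. The rise in DEN tumours was 3.19 ± 0.30 (SE; adjusted p = 2.3e-06), which is 9.10-fold. The rise in KO tumours was 1.50 ± 0.30 (SE; adjusted p = 4.3e-04), which is 2.83-fold, and the difference between both was -1.68 ± 0.42 (SE; adjusted p = 0.0064).
Oasl2, an OAS-like protein, was -1.87, -0.80, -1.65 and -1.15 in WT livers and -0.70, 0.59, -0.70, 0.36 and 0.45 in DEN tumours. It was -0.10, -0.77, -0.54 and -0.82 in KO livers and 0.69, 1.99, 1.15, 0.32 and 1.54 in KO tumours. It was one of the 3 members higher in KO than in DEN tumours although the mice overlapped, a change of 1.14 ± 0.34 (SE; adjusted p = 0.0096). It rose by 1.70 ± 0.36 (SE; adjusted p = 8.9e-04) over KO livers and by 1.36 ± 0.36 (SE; adjusted p = 0.013) in DEN tumours over WT livers.
Oas3, which makes long oligoadenylates, was dim. It was -6.74, -6.5, -6.44 and -6.24 in the KO livers, where no array was well above background, and -4.19, -4.27, -4.28, -4.88 and -3.22 in KO tumours. It was -5.47, -5.11, -6.2 and -4.48 in WT livers, with 1 of 4 arrays above background, and -4.8, -3.0, -4.01, -4.22 and -4.28 in DEN tumours. KO tumours were at least 1.45-fold higher than KO livers when the dim side was set at the lowest signal well above background (adjusted p = 7.9e-05). Oas1g was above background in 5 of 7 DEN tumours, 2 of 6 KO tumours and in no liver array, so that no fold is given. Only tumour arrays brought its probe past the filter on dim probes. The limma model called it from WT liver to DEN tumour (adjusted p = 0.049), with only signals near background on the liver side. Set at the lowest signal well above background, that side left a bound of 0.65-fold, which is below 1. A rise of Oas1g is therefore not shown, although its call is counted. The Oas1a and Oas1g probes share no run longer than 7 of their 60 bases. Oasl1 rose in DEN tumours by 1.28 ± 0.41 (adjusted p = 0.035), and Oas2 was called in no comparison, with changes of 0.94 in DEN and 0.91 in KO tumours.

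**Figure D2:**
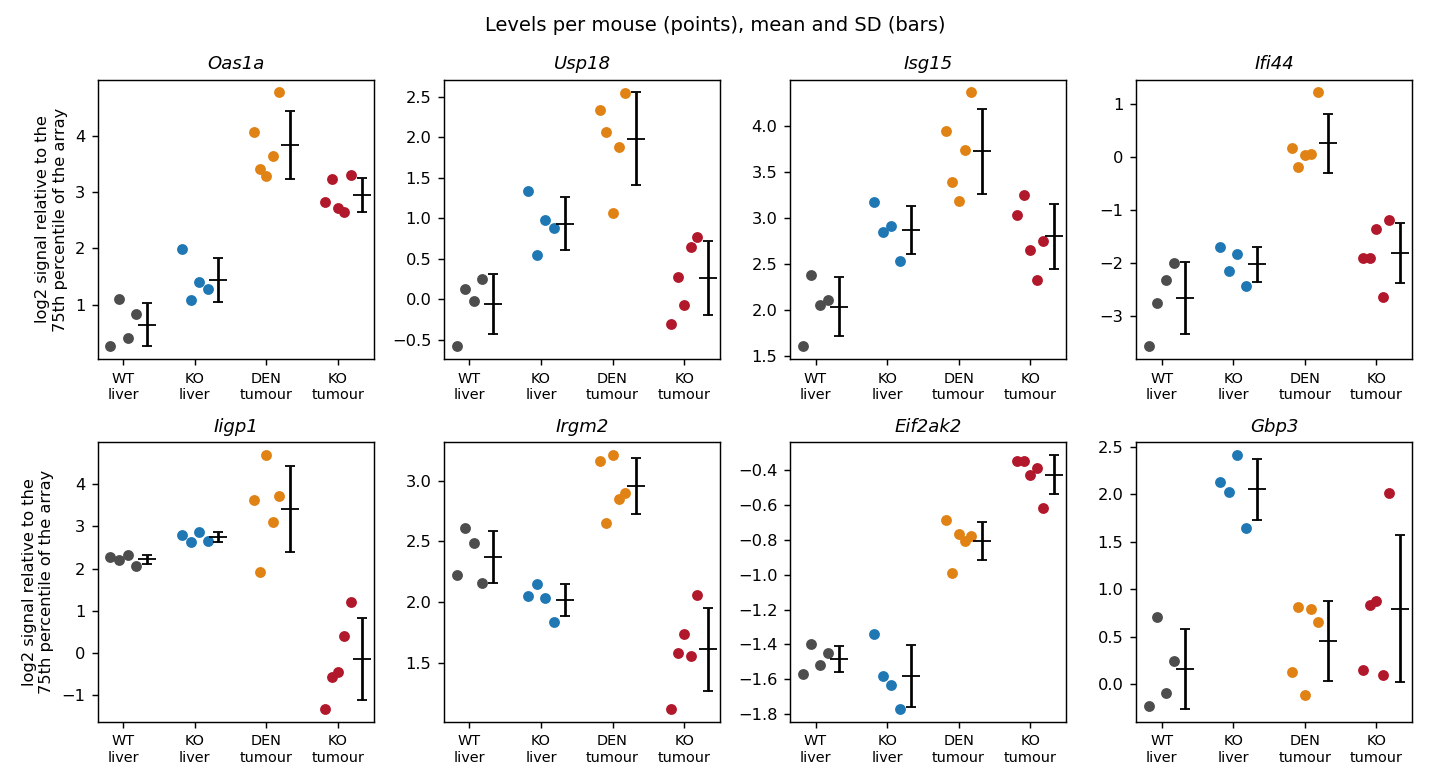
Points are mice, and the bar beside them gives the mean and SD of the group (n = 4, 4, 5 and 5 mice); the y axis is the log2 signal scaled to each array's 75th percentile, with its own range for each gene. Oas1a, Usp18, Isg15 and Ifi44 are highest in DEN tumours, Iigp1 and Irgm2 are lowest in KO tumours, Eif2ak2 is highest in KO tumours and Gbp3 in KO livers.

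Of the 9 antiviral effectors, 3 were called higher in both tumour types, 4 in DEN tumours without a call in KO tumours and 2, Bst2 and Mx2, lower in KO tumours. Ifit2 and Mx1, an RNA-binding tetratricopeptide protein and a GTPase that blocks viral nucleoproteins, rose in both. Mx1 averaged -3.93 ± 0.30 (SD) in KO livers and -1.23 ± 0.55 (SD) in KO tumours, a change of 2.70 ± 0.46 (SE; adjusted p = 1.2e-04), and rose by 1.96 ± 0.46 from WT liver to DEN tumour (adjusted p = 0.0061). Ifit2 rose by 1.90 ± 0.40 in KO tumours (adjusted p = 7.5e-04) and by 2.31 ± 0.40 in DEN tumours (adjusted p = 6.3e-04). Eif2ak2 (PKR), a kinase that halts translation on sensing double-stranded RNA, was -1.57, -1.4, -1.52 and -1.45 in WT livers and -1.34, -1.58, -1.63 and -1.77 in KO livers. It was -0.69, -0.99, -0.77, -0.81 and -0.78 in DEN tumours and -0.35, -0.35, -0.43, -0.39 and -0.62 in KO tumours. The livers, the DEN tumours and the KO tumours occupied 3 separate ranges. It rose by 1.15 ± 0.14 (SE; adjusted p = 3.4e-06) in KO tumours, by 0.68 ± 0.14 (SE; adjusted p = 0.0021) in DEN tumours, and KO exceeded DEN tumours by 0.38 ± 0.13 (SE; adjusted p = 0.019); within scan day 1 that last difference was 0.30 ± 0.17 (adjusted p = 0.17).
Ifit1, which binds RNA lacking a host cap, rose in DEN tumours without a called change in KO tumours. It was -3.31, -2.3, -2.14 and -2.04 in WT livers and -1.17, -0.02, -0.89, -0.67 and -0.47 in DEN tumours, a change of 1.80 ± 0.34 (SE; adjusted p = 0.0011). It was -1.79, -1.98, -2.0 and -2.52 in KO livers and -2.63, -1.74, -2.63, -2.28 and -1.17 in KO tumours, a change of -0.01 ± 0.34 (adjusted p = 0.97). All DEN tumour mice lay above all livers, and only KO tumour mouse 5 came up to the lowest of them. The difference between both changes was -1.82 ± 0.47 (SE; adjusted p = 0.0088). Ifit3, Rsad2 (viperin) and its neighbour Cmpk2 had the same calls: their changes in DEN tumours were 1.05, 1.73 and 1.36, those in KO tumours -0.28, -0.46 and -0.40, and the differences between both -1.33, -2.20 and -1.76, each with an adjusted p under 0.05.
Bst2 (tetherin), which holds budding virus on the cell surface, was among the brightest members and fell in KO tumours. It was 5.71, 5.54, 5.55 and 5.64 in KO livers and 4.64, 4.58, 4.69, 3.94 and 4.12 in KO tumours. It was 5.63, 5.36, 5.29 and 5.52 in WT livers and 5.42, 4.38, 5.0, 5.82 and 5.53 in DEN tumours. No KO tumour mouse reached the lowest liver, and DEN mouse 2 lay within the range of the KO tumours. The fall from KO livers was -1.22 ± 0.25 (SE; adjusted p = 5.8e-04), and the DEN tumours did not differ detectably from WT livers (-0.22 ± 0.25, adjusted p = 0.58). Under normexp and quantile scaling Bst2 was called in neither KO tumours against KO livers (-0.31, adjusted p = 0.26) nor KO against DEN tumours (-0.31, adjusted p = 0.23). Mx2 was lower in KO than in DEN tumours (-0.85 ± 0.19 (SE; adjusted p = 0.0011)) and lower than in KO livers by a smaller margin (-0.50 ± 0.20 (SE; adjusted p = 0.046)), a call that ended without any of 13 mice.

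Isg15, the ubiquitin-like modifier, and Usp18, the protease that removes it and that also damps the type I interferon receptor, were raised in DEN tumours. Isg15 was 1.6, 2.38, 2.05 and 2.1 in WT livers and 3.94, 3.39, 3.18, 3.73 and 4.36 in DEN tumours. It was 3.17, 2.84, 2.91 and 2.53 in KO livers and 3.03, 3.24, 2.65, 2.32 and 2.75 in KO tumours. WT livers were the lowest group, and KO livers and KO tumours covered much the same range. The rise in DEN tumours was 1.69 ± 0.25 (SE; adjusted p = 2.0e-04), whereas KO tumours differed from KO livers by -0.06 ± 0.25 (adjusted p = 0.85). Usp18 was -0.58, 0.13, -0.02 and 0.25 in WT livers, 1.33, 0.55, 0.98 and 0.88 in KO livers, 2.34, 2.06, 1.06, 1.88 and 2.55 in DEN tumours and -0.31, 0.28, -0.07, 0.64 and 0.77 in KO tumours. Only DEN mouse 3 fell within the range of the KO livers, and every DEN mouse exceeded every KO tumour mouse. The rise in DEN tumours was 2.03 ± 0.30 (SE; adjusted p = 1.8e-04), which is 4.09-fold. KO tumours lay below DEN tumours, with a difference of -1.72 ± 0.28 (SE; adjusted p = 1.1e-04), and within scan day 1 of -2.24. The difference between both liver to tumour changes was -2.71 ± 0.43 (SE; adjusted p = 3.3e-04), one of 2 lower calls in that comparison (with Iigp1) that a slide block kept.

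The interferon-inducible GTPases, which attack the vacuoles of intracellular parasites and bacteria and answer mainly to interferon gamma, held the largest difference in the module. Iigp1 (Irga6) was 2.28, 2.21, 2.31 and 2.06 in WT livers, 2.8, 2.63, 2.87 and 2.65 in KO livers, 3.63, 1.91, 4.68, 3.1 and 3.71 in DEN tumours and -1.32, -0.57, -0.44, 0.40 and 1.21 in KO tumours. Every KO tumour mouse lay below every other mouse, with mouse 5 the highest of them, while the DEN tumours spread from below the livers to well above them. KO tumours were below DEN tumours, with a difference of -3.55 ± 0.45 (SE; adjusted p = 1.1e-05), which is 11.7-fold, and within scan day 1 of -4.28 ± 0.30. They were below KO livers, with a change of -2.88 ± 0.48 (SE; adjusted p = 8.7e-05), which is 7.37-fold. DEN tumours against WT livers gave 1.19 ± 0.48 (adjusted p = 0.086).
Irgm2 was 2.22, 2.61, 2.49 and 2.16 in WT livers and 2.05, 2.15, 2.03 and 1.84 in KO livers. It was 3.16, 2.65, 3.21, 2.85 and 2.9 in DEN tumours and 1.12, 1.58, 1.74, 1.56 and 2.06 in KO tumours. All DEN mice lay above all livers, and KO tumours overlapped KO livers through mouse 5. The difference between KO and DEN tumours was -1.34 ± 0.18 (SE; adjusted p = 1.8e-05), while KO tumours against KO livers gave -0.40 ± 0.19 (adjusted p = 0.086). Igtp (Irgm3) and Irgm1 were lower in KO tumours than in KO livers (changes of -1.12 ± 0.28 and -0.66 ± 0.17, adjusted p = 0.0027 and 0.0042) and than in DEN tumours (differences of -1.36 ± 0.26 and -0.60 ± 0.16), and neither was called in DEN tumours against WT livers. Both calls against KO livers ended with a slide block (adjusted p = 0.15 and 0.1) and under normexp and quantile scaling (-0.62 and -0.30, adjusted p = 0.13 and 0.16), and a second Irgm1 probe gave -0.39 ± 0.24 there (adjusted p = 0.2).
The guanylate-binding proteins Gbp2 and Gbp3 went opposite ways from KO liver to KO tumour. Gbp2 was -0.56, -0.89, -0.54 and -1.29 in KO livers and 0.17, 0.28, 1.12, -0.52 and 1.59 in KO tumours. It was -1.98, -1.18, -1.65 and -0.85 in WT livers and -1.15, 0.73, -0.44, -0.30 and -1.0 in DEN tumours. KO mouse 5 was the highest and DEN mouse 2 stood above the other DEN mice. The rise in KO tumours was 1.35 ± 0.42 (SE; adjusted p = 0.013), and KO exceeded DEN tumours by 0.96 ± 0.40 (SE; adjusted p = 0.049), a call lost on leaving out any of 13 of the 18 mice. Gbp3 was -0.23, 0.71, -0.09 and 0.25 in WT livers, 2.13, 2.02, 2.41 and 1.64 in KO livers, 0.13, 0.81, -0.11, 0.79 and 0.66 in DEN tumours and 0.15, 0.84, 0.88, 0.10 and 2.01 in KO tumours. The 4 KO livers stood above all WT livers and all DEN tumours, and only KO tumour mouse 5 reached their range. KO livers exceeded WT livers by 1.89 ± 0.36 (SE; adjusted p = 0.0051), and KO tumours lay below KO livers, with a change of -1.26 ± 0.34 (SE; adjusted p = 0.0057).

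Among the remaining members, Ifi44, a cytosolic protein of uncertain function, had the second largest rise in DEN tumours. It was -3.58, -2.76, -2.33 and -2.01 in WT livers and 0.17, -0.19, 0.04, 0.05 and 1.22 in DEN tumours, against -1.71, -2.15, -1.83 and -2.43 in KO livers and -1.91, -1.91, -1.37, -2.65 and -1.2 in KO tumours. The DEN tumours stood apart from all other mice, with mouse 5 the highest. The rise was 2.93 ± 0.36 (SE; adjusted p = 3.0e-05), KO tumours differed from KO livers by 0.22 ± 0.36 (adjusted p = 0.62), and the difference between both changes was -2.71 ± 0.50 (SE; adjusted p = 0.001).
Tap1, a subunit of the peptide transporter that loads MHC class I, ran the opposite way. It was -2.26, -2.2, -2.42 and -2.58 in KO livers and -0.63, -0.64, -0.53, -0.96 and 0.00 in KO tumours. It was -2.02, -1.53, -1.07 and -0.72 in WT livers and -0.56, -0.77, -0.24, -0.40 and -1.13 in DEN tumours. The KO livers lay below all other mice, and both tumour groups covered a similar range. The rise in KO tumours was 1.81 ± 0.26 (SE; adjusted p = 2.1e-05), that in DEN tumours was 0.72 ± 0.26 (adjusted p = 0.057), and Tap1 was the single member of 8 with a positive difference between both changes for which that difference was called (1.10 ± 0.37 (SE; adjusted p = 0.031)). Quantile scaling, a slide block or the loss of any of 5 mice ended that last call. Parp14, an ADP-ribosyltransferase, rose in DEN tumours by 0.67 ± 0.20 (adjusted p = 0.023), and Ifi35 was called in no comparison.

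**Figure D3:**
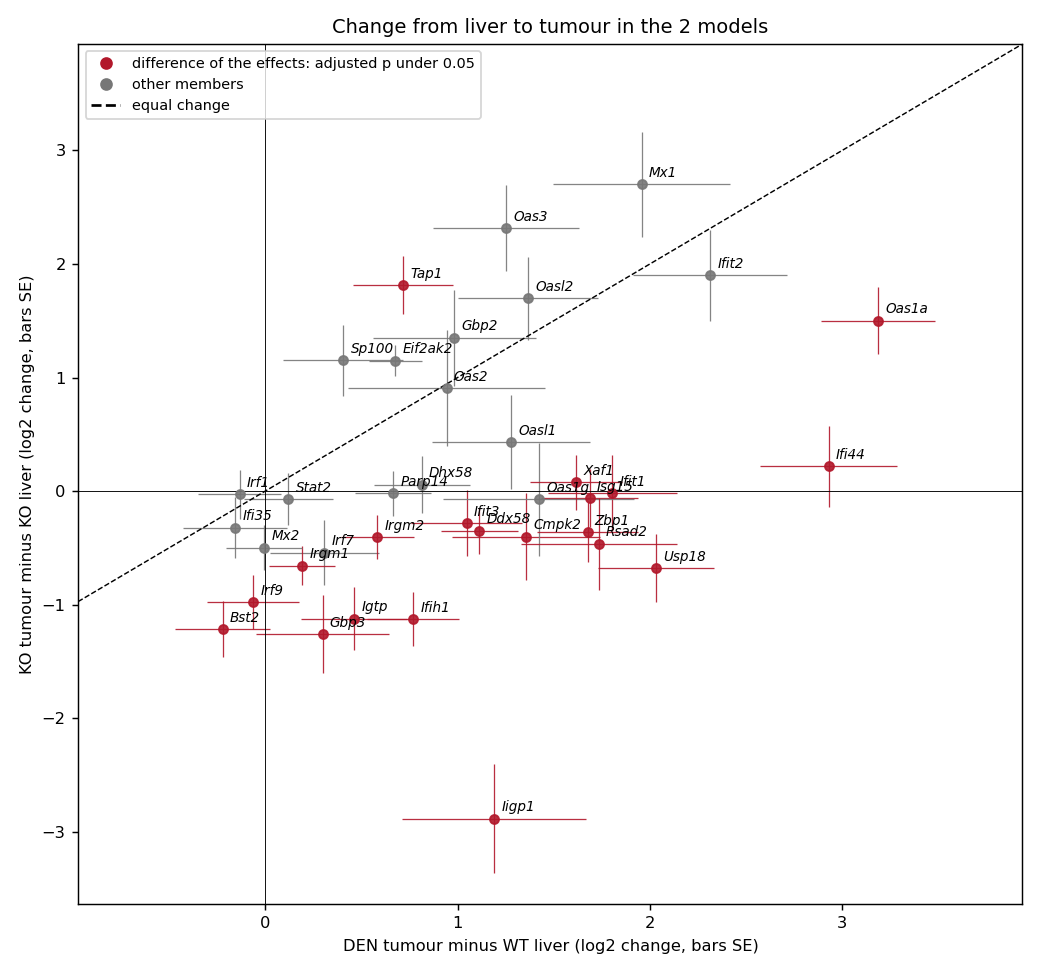
Each point is a member, with the log2 change from WT liver to DEN tumour on the x axis, the change from KO liver to KO tumour on the y axis, and SE as bars. The dashed line marks equal change, and the 20 red points differ between both changes at an adjusted p under 0.05, with Tap1 above the line and the other 19 below it. Oas3 was below background in all KO livers and Oas1g in all livers, so their positions rest on signals near background.

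Side by side, the changes from liver to tumour sorted the members as follows. For the counts of paired calls in this paragraph, shares of all genes are not given. Both tumour types were called above their livers in 6 members (Oas1a, Oas3, Oasl2, Ifit2, Mx1 and Eif2ak2). Oas3, among the 6, was above background in no KO liver array and in 1 of 4 WT liver arrays. Its call in DEN tumours ended on leaving out any of 3 of the 18 mice. On the probes used, 15 others were called higher in DEN tumours without a call in KO tumours, and Ifih1 rose in DEN and fell in KO tumours. Oas1g, among the 15, was above background in no liver array, so its rise is not shown. Second probes of Ddx58 and Xaf1 were not called higher in DEN tumours. In KO tumours the second Ifih1 probe gave no called fall (-0.13 ± 0.28), and the second Zbp1 probe was called higher (1.54 ± 0.34). Gbp2 and Tap1 were called higher in KO tumours and not called in DEN tumours, as was the probe used for Sp100, whose other probe went the opposite way. Irf9, Mx2, Bst2, Gbp3, Igtp, Irgm1 and Iigp1 were called lower in KO tumours and not called in DEN tumours. The difference between both changes was not called for Gbp2 (0.37, adjusted p = 0.67), Sp100 (0.75, adjusted p = 0.21) and Mx2. The difference between both changes, tested as an interaction, was called lower in 19 members (51.4%) and higher in 1, against 18.3% and 13.5% of all genes, with a median of -0.91 for the members and -0.22 for all genes. It rests on the WT livers, and a slide block left 2 lower calls and 0 higher, with 11 lower and 0 higher at an unadjusted p under 0.05. With that block 544 of all 21751 genes were called lower and 368 higher.

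The tumour-free livers differed little. On the probe used for each gene, KO livers exceeded WT livers in Gbp3 and lay below them in Tap1 (-1.03 ± 0.27 (SE; adjusted p = 0.029)). That is 2.7% of members each way, against 1.88% of all genes called higher and 6.59% lower. The second Sp100 probe, not counted here, was also called lower in KO livers (-1.72 ± 0.44, adjusted p = 0.025 by limma over all probes). At an unadjusted p under 0.05 there were 7 higher and 3 lower, and the mice did not overlap for 10 members (27%), against 28.3% of all genes. Usp18 and Isg15 were 0.99 ± 0.32 and 0.83 ± 0.27 higher (adjusted p = 0.063 and 0.064) and passed in a fit of these 2 groups alone, which called 6 members higher and 3 lower. That fit called 1363 of all 21751 genes higher and 2844 lower, against 409 and 1434 in the main fit. With the slide as a block no member was called in either direction (1 higher and 0 lower at an unadjusted p under 0.05). Of all genes, 6 were then called higher and 6 lower. The 4 WT livers were scanned on a day of their own, so day and genotype cannot be told apart here.

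For 11 members more than 1 probe was tested, and in 3 of them probes of the gene disagreed in direction in a comparison where at least 1 was called. Of the called members with 2 tested probes, both were called the same way for 5 of 7 raised from WT liver to DEN tumour (not Ddx58 and Xaf1) and for 5 of 9 lower in KO than in DEN tumours (not Ddx58, Oas1a, Xaf1 and Zbp1). The same held for 5 of 9 members whose difference between both changes was called lower (not Ddx58, Irgm1, Xaf1 and Zbp1). Xaf1, a binding partner of the apoptosis inhibitor XIAP, gave the widest split. The probe used above (mm9 chr11:72122169-72122228) was -2.19, -1.35, -1.9 and -1.62 in WT livers, -1.49, -1.53, -1.8 and -1.69 in KO livers, -0.51, -0.18, -0.57, 0.17 and 0.36 in DEN tumours and -1.01, -1.46, -1.81, -1.97 and -1.51 in KO tumours, a rise of 1.62 ± 0.24 in DEN tumours. Its second probe (chr11:72127175-72127234) was -0.96, -0.14, -0.24 and -0.23 in WT livers, 1.54, 1.29, 1.35 and 0.98 in KO livers, 0.89, -5.33, -5.84, -5.74 and -5.29 in DEN tumours and 1.47, 1.37, 1.57, -0.21 and 0.57 in KO tumours. DEN tumour mice 2 to 5 were near the bottom of the scale on the second probe and mouse 1 was not. The 2 tumours of mouse 4 read -5.76 and -5.72 and those of mouse 5 read -5.27 and -5.32. In each pair 1 tumour was scanned on day 1, as was the tumour of mouse 1, which read 0.89. The cause of this split was not tested. With these values the second probe gave a change of -3.87 ± 1.0 from WT liver to DEN tumour (adjusted p = 0.011 by limma over all probes). From DEN to KO tumour it gave 5.21 ± 0.94 (adjusted p = 2.3e-04 in the same fit), where the probe used above gave -1.40 ± 0.23. The second probe was the brighter one in WT livers (-0.39 against -1.76), KO livers (1.29 against -1.63) and KO tumours (0.95 against -1.55), and it was the dimmer one over all samples through the DEN tumours (-4.26 against -0.15). The choice of probe thus turned on the groups compared, and no direction is given for Xaf1.
Sp100, a nuclear body protein, was read above by a probe (chr1:87605957-87606016) at -4.04, -3.79, -3.17 and -3.51 in WT livers, -4.67, -4.14, -4.56 and -4.56 in KO livers, -3.67, -2.93, -3.29, -3.07 and -3.15 in DEN tumours and -3.48, -4.18, -3.25, -2.15 and -3.6 in KO tumours. Its second probe (chr1:87559346-87559405) was -2.96, -2.96, -2.62 and -2.33 in WT livers, -4.26, -4.51, -4.55 and -4.44 in KO livers, -4.78, -2.97, -2.73, -3.98 and -3.73 in DEN tumours and -5.21, -6.01, -4.85, -6.72 and -6.75 in KO tumours. From KO liver to KO tumour the first rose by 1.15 ± 0.31 and the second gave -1.47 ± 0.42, both called, so no direction is given for the gene. In KO against DEN tumours the second gave -2.27 ± 0.40 (adjusted p = 1.7e-04 by limma over all probes) and the first -0.11 ± 0.29 (adjusted p = 0.77). In KO against WT livers they gave -1.72 ± 0.44 (adjusted p = 0.025) and -0.86 ± 0.33 (adjusted p = 0.12) in the same fit.
Zbp1, a sensor of Z-form nucleic acid that triggers cell death, agreed between probes in DEN tumours. Its brighter probe (chr2:173039307-173039366) was -0.37, -0.80, -0.49 and -0.26 in WT livers, 0.79, 0.18, 0.45 and -0.07 in KO livers, 0.88, 0.82, 0.74, 1.72 and 1.82 in DEN tumours and -0.15, -0.48, 0.14, 0.11 and 0.30 in KO tumours. The second (chr2:173032258-173032317) was -3.27, -2.66, -2.41 and -2.13 in WT livers, -1.89, -2.72, -2.63 and -2.9 in KO livers, -0.96, -1.39, -0.80, -0.69 and -0.81 in DEN tumours and -1.4, -1.68, -0.90, -1.22 and 0.21 in KO tumours. Both gave a rise in DEN tumours, of 1.68 ± 0.26 and 1.69 ± 0.34, but from KO liver to KO tumour the brighter probe changed by -0.36 ± 0.26 and the second rose by 1.54 ± 0.34 (adjusted p = 0.0011). In KO against DEN tumours the brighter probe gave -1.21 ± 0.25 and the second -0.07 ± 0.32 (adjusted p = 0.87). The exon or UTR in which these probes lie was not analysed here.

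**Figure D4:**
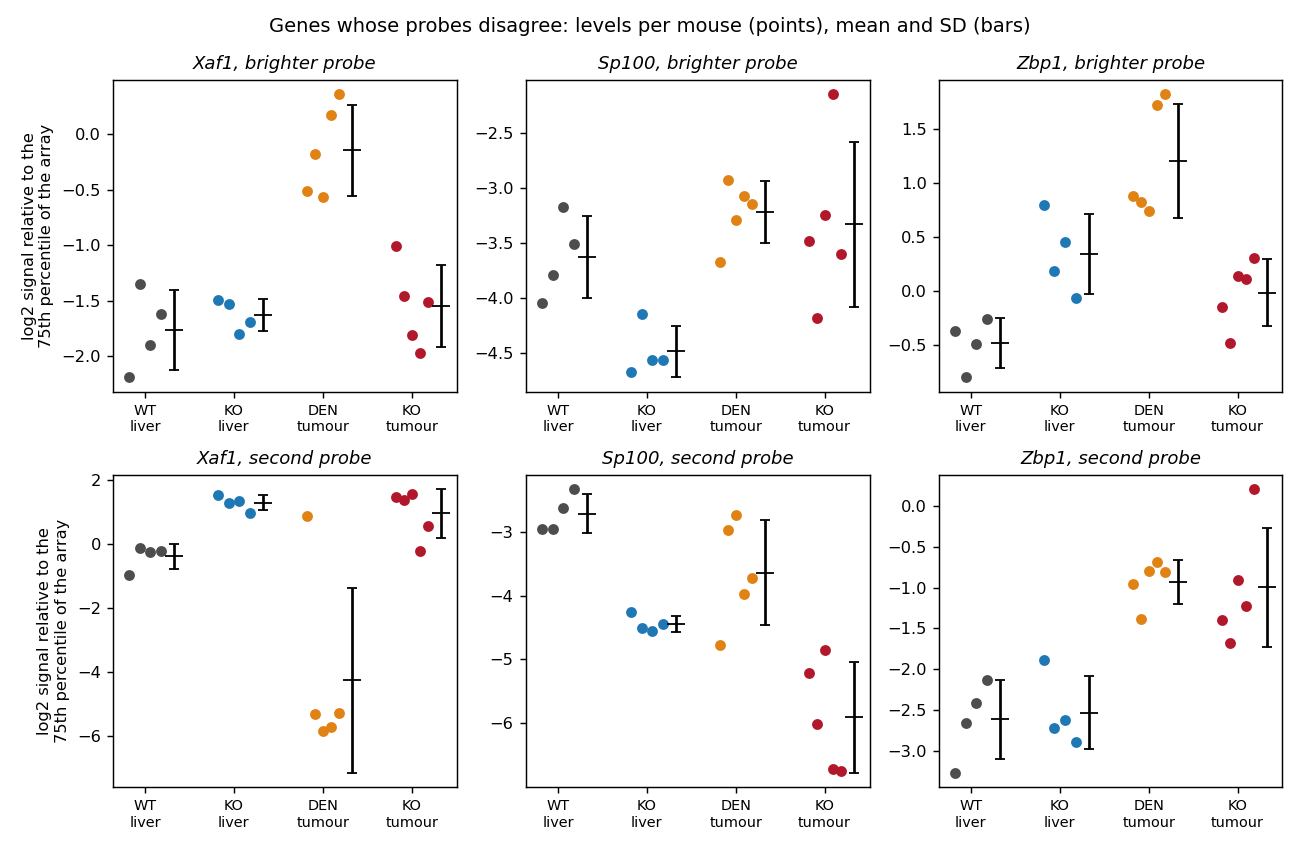
Points are mice, and the bar gives the mean and SD of the group; the upper panels show the probe used for Xaf1, Sp100 and Zbp1 and the lower panels the second probe, as log2 signal scaled to each array's 75th percentile. In the lower Xaf1 panel 1 DEN tumour mouse reads 0.89 and the other 4 between -5.84 and -5.29.

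The upstream genes of the pathway did not follow 1 pattern, and the counts in these short lists stand beside 20.8% of all genes called higher and 36.4% lower in KO against DEN tumours, 22.7% and 29.9% in KO tumours against KO livers and 10.7% and 11.4% in DEN tumours against WT livers. Of 9 ligand genes on the array, 5 passed the filter on dim probes, and 1 was above background on every array. Of the 5, 4 were lower in KO than in DEN tumours, led by Ifna2 and Ifna1 (-1.88 ± 0.37 and -1.80 ± 0.36, adjusted p = 4.8e-04 for both by limma). The DEN tumour arrays alone could meet that filter, so this count is not independent of it. Both genes were above background in 7 of 7 DEN tumours and 3 of 6 KO tumours, so their changes rest partly on signals near background. The near-identical genes of the alpha family may share signal. Ifng, the gamma interferon, was above background in 5 of 6 KO tumours and in no KO liver, a rise of at least 2.25-fold (adjusted p = 0.0049). The KO tumour arrays alone could bring Ifng past the filter, so this call is not independent of that filter either. Among 9 receptor and kinase genes, 6 were higher and 0 lower in KO tumours than in KO livers, led by Il10rb (1.87 ± 0.19, adjusted p = 6.2e-07) and Ifngr2 (2.14 ± 0.22, adjusted p = 9.3e-07), and DEN tumours exceeded WT livers in 3 and lay below them in 0, led by Ifngr1 (1.60 ± 0.19) and Ifnlr1, the lambda interferon receptor (3.62 ± 0.47). In KO against DEN tumours 4 of these 9 were higher and 1 lower.
Of 8 negative regulators, 5 were higher and 1 lower in KO than in DEN tumours. Socs1, which inhibits the Jak kinases, averaged -0.75 ± 0.33 (SD) in DEN tumours and 1.45 ± 0.69 (SD) in KO tumours (2.20 ± 0.35 (SE; adjusted p = 7.8e-05)), and rose by 3.43 ± 0.37 over KO livers (adjusted p = 1.4e-06). The fallen one was Trim24 (-0.82 ± 0.23, adjusted p = 0.0061). Of 15 sensing adaptors and kinases, 4 were higher and 6 lower in KO than in DEN tumours. Sting1, the adaptor of cytosolic DNA sensing, averaged 0.19 ± 0.25 (SD) in DEN tumours and 3.32 ± 0.84 (SD) in KO tumours (3.12 ± 0.33 (SE; adjusted p = 2.0e-06)), whereas Tlr9 and Trim25 gave -2.94 ± 0.40 and -2.35 ± 0.47.
A further 47 interferon-induced genes outside the module gave 13 higher and 2 lower in DEN tumours against WT livers, led by Isg20 (1.53 ± 0.27, adjusted p = 7.8e-04) and Cxcl10 (1.92 ± 0.42, adjusted p = 0.0035). They gave 16 higher and 16 lower in KO tumours against KO livers and 10 higher (21.3%) and 16 lower (34%) in KO against DEN tumours, the latter shares near those of all genes. Ifi27 fell in KO against DEN tumours (-2.43 ± 0.22, adjusted p = 6.4e-07), while Ifi30, a lysosomal thiol reductase (2.43 ± 0.34, adjusted p = 2.8e-05), and Gbp6 (2.73 ± 0.41, adjusted p = 5.1e-05) rose. The difference of both changes was higher in 3 (6.38%) and lower in 14 (29.8%) of the 47, against 13.5% and 18.3% of all genes.

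Markers of other cells moved between the same groups. In KO against DEN tumours 11 of 12 hepatocyte markers were lower and 0 higher, and 7 of 10 bile duct markers higher and 0 lower, with mean marker differences from the livers of -5.30 to -2.69 and 2.59 to 4.79 in KO tumours and of -1.37 to -0.70 and 0.47 to 1.84 in DEN tumours. For immune cells, 4 of 14 T and NK cell markers were higher (28.6%) and 5 lower (35.7%), near the shares of all genes (20.8% and 36.4%), 7 of 12 macrophage and Kupffer cell markers were higher and 2 lower (Lyz2 and C1qa up, Cd5l and Clec4f down), 5 of 7 B and plasma cell markers higher and 1 lower, 1 of 7 plasmacytoid dendritic cell markers higher and 1 lower, and 1 of 10 neutrophil markers higher and 1 lower. Of 10 endothelial markers 1 was higher and 4 lower. In DEN tumours against WT livers 1 of 14 T and NK cell markers, 4 of 12 macrophage markers and 2 of 10 neutrophil markers were higher and 0 lower in each list. For T and NK cells the mean marker difference of DEN tumours ran from 0.24 to 1.14, that of KO tumours from 0.24 to 1.63, that of WT livers from -0.38 to 1.10 and that of KO livers from -0.29 to 0.24. That of macrophages ran from -1.46 to 0.39 in DEN tumours, but from -1.65 to 2.26 in KO tumours, from -0.60 to -0.10 in WT livers and 0.18 to 0.43 in KO livers. Ncr1, an NK cell receptor, is 1 of the 14 T and NK cell markers, a list that went both ways as counted above. It was above background on no liver array, on 2 of 7 DEN tumours and on 3 of 6 KO tumours, so its values rest partly on signals near background. KO tumour mouse 5, highest of its group for the module, was also highest for T and NK cell (1.63), macrophage (2.26) and neutrophil (3.25) markers. The same held for B and plasma cell (3.45), plasmacytoid dendritic cell (1.12) and endothelial (-0.15) markers. Before scaling, its arrays had the highest 75th percentiles of the study (4258 and 3894), and they were scanned on day 3. The part of these cells in the interferon results was not tested.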

How the data were processed

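RNA of 21 samples (7 DEN tumours, 6 KO tumours, 4 KO livers, 4 WT livers) was read on Agilent arrays in 1 colour (Cy3). Per the file headers, Agilent Feature Extraction 10.7.3.1 made the deposited intensity of each spot, corrected for background by the authors. The authors' deposited value table is in log2 units, scaled on the 75th percentile and centred on each probe, as a comparison with the arrays showed.

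From these, log2 processed intensity minus the 75th percentile of each array was computed. Outlier spots (70 to 397 per array) were left out, which left 969 values missing, 0 of them in members. Probes well above background on at least 4 arrays were kept (30397), and of a gene's probes the one of highest mean signal was used. Names came from RefSeq (GRCm38.p6; 26755 probes matched by accession, 2808 by another accession, 3751 by symbol and 623 by synonym, while 5492 kept the name in the files); probe positions are those of the files, in mm9. The number before the T in tumour titles was taken as the mouse and the livers as separate mice. Nothing else states that the samples are separate animals, so p-values measure the spread between these samples.

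limma 3.58.1 (R 4.3.3, data.table version 1.17.8) fitted 4 group means over 18 mice, with eBayes moderation, two-sided tests and Benjamini-Hochberg adjustment over 21751 genes at a threshold of 0.05. The same limma steps were tested on simulated data. A lower bound of a fold sets the dim group at the higher of its own signal and the lowest signal well above background on each array.

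The 37 members and the 13 lists of other pathway genes and cell markers were chosen with earlier results of these data known, and no test of a list as a whole was made. Values of every mouse are given for members among the 3 smallest adjusted p higher or lower in a comparison, for Irf7, Stat2, Isg15 and Ifit1, and for genes whose probes disagree. Of each list, at most 2 genes that rose and 2 that fell, with the smallest adjusted p in a comparison, are named. Ncr1 is named outside that rule. 1 further gene is not reported here. Alternatives were normexp with an offset of 50 and quantile scaling, centring on probes detected on all arrays, the authors' values, no filter, every array as a sample, every probe tested, slide or scan day as a block, scan day 1 alone, only the groups compared, and each mouse left out. The slide block took every array as a sample, and the scan day block averaged only tumours of 1 mouse scanned on the same day. Fits without KO tumour mice 4 and 5, without KO tumour mice 1 and 2 and without the DEN tumours of scan day 2 were chosen after seeing the data.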

Additional observations from a re-analysis of the deposited data

Results flagged for a closer look

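Within the groups of mice, 11 of 192 sets of values for a probe of a member held 1 mouse far from the others by Dixon's criterion, which chance alone meets in about 1 of 20. In WT liver mouse 1, Ifit2 was -5.65 (others -4.16 to -4.04), Ifit3 was 0.16 (others 0.85 to 0.91), the second probe of Cmpk2 was -3.75 (others -2.85 to -2.70) and the second probe of Xaf1 was -0.96 (others -0.24 to -0.14). The second probe of Iigp1 was 1.07 in WT liver mouse 4 (others 1.44 to 1.5). Among DEN tumours, mouse 3 had 3.97 for Irf1 (others 3.58 to 3.67) and 0.03 for Irf7 (others 0.61 to 0.70), mouse 2 had -1.24 for Ifit2 (others -2.57 to -2.20), mouse 5 had 1.22 for Ifi44 (others -0.19 to 0.17) and mouse 1 had 0.89 on the second Xaf1 probe (others -5.84 to -5.29). In KO tumour mouse 5, Ifit3 was 1.66 (others 0.14 to 0.54).

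The change from liver to tumour differed between the models, by limma's interaction test, in 20 members. KO minus DEN, the difference of the changes was -4.07 for Iigp1, -2.71 for Usp18, -2.71 for Ifi44, -2.20 for Rsad2, -2.03 for Zbp1, -1.89 for Ifih1, -1.82 for Ifit1, -1.76 for Cmpk2, -1.75 for Isg15 and -1.68 for Oas1a. It was -1.58 for Igtp, -1.56 for Gbp3, -1.54 for Xaf1 on the probe used, -1.46 for Ddx58, -1.33 for Ifit3, -0.99 for Bst2, -0.99 for Irgm2, -0.91 for Irf9 and -0.85 for Irgm1. Tap1 alone had a positive value, 1.10. Of 9 members with a lower call and 2 tested probes, both probes were called for 5, but not for Ddx58, Irgm1, Xaf1 and Zbp1. Second probes gave -0.15 ± 0.48 for Zbp1, -0.44 ± 0.40 for Ddx58 and -0.80 ± 0.35 for Irgm1 (adjusted p = 0.84, 0.43 and 0.09 by limma over all probes). That of Xaf1 gave 3.53 ± 1.41 (adjusted p = 0.068 in the same fit).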

How the results depend on the processing

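Counts are given as members higher and lower. With the slide as a random block (estimated correlation 0.374), KO against DEN tumours gave 0 higher and 14 lower, KO tumours against KO livers 3 lower, DEN tumours against WT livers 5 higher, KO against WT livers 0 and 0, and the difference of both changes 0 and 2. With normexp and quantiles, KO tumours against KO livers gave 4 lower, KO against WT livers 0 lower and the difference 0 higher; over all genes, KO against DEN tumours changed from 4515 higher and 7927 lower to 5697 and 6014. That scaling also gave Irf1 0.73 (adjusted p = 0.017) in KO tumours against KO livers, where the main value was -0.03; the cause was not tested. Centring on probes detected on all arrays gave 2 higher for the difference. A fit of only the groups compared gave 1 higher for KO against DEN tumours and 6 higher and 3 lower for KO against WT livers, and every tumour array as a sample gave 0 lower there. The first of these fits called 1363 of all 21751 genes higher and 2844 lower for KO against WT livers. Without KO tumour mice 4 and 5, KO against WT livers gave 3 and 3 and the difference 2 higher. Without KO tumour mice 1 and 2, KO against DEN tumours gave 1 higher. Without the DEN tumours of scan day 2, DEN tumours against WT livers gave 14 higher, and KO against WT livers 3 and 0.

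Leaving out each mouse in turn gave 2 to 3 higher and 19 to 22 lower in KO against DEN tumours, 9 to 10 and 7 to 13 in KO tumours against KO livers, 13 to 23 and 0 to 0 in DEN tumours against WT livers, 1 to 2 and 0 to 2 in KO against WT livers, and 0 to 2 and 16 to 21 for the difference. The 7 lower extreme of KO tumours lacked Mx2, the 13 came without KO tumour mouse 5, and the 13 of DEN tumours without WT liver mouse 1. Single calls ended by a left-out mouse were Oas1g in both comparisons that called it (7 and 13 of 18 mice), Irgm2 (6), Oasl1 (6), Dhx58 (4), Oas3 (3), Parp14 (2), Cmpk2 (1) and Ifit3 (1) in DEN tumours against WT livers, Tap1 in KO against WT livers (6), and Bst2 (12), Irf9 (13), Gbp3 (1) and Cmpk2 (1) in the difference, beside those given above. The authors' values changed no call. No paired analysis was possible because tumours and livers share no number in the sample titles. Scan day could be held fixed only where both groups shared day 1, and a fit of only the groups compared cannot give the difference. With signals near background, Oas1g and Oas3 rest on few arrays.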

Other observations

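Mice of 1 group varied in these genes about as in others. The median SD over members was 0.32 in WT livers, 0.28 in KO livers, 0.44 in DEN tumours and 0.55 in KO tumours, against 0.36, 0.21, 0.42 and 0.59 over all genes tested. The member with the widest spread was Mx1 in DEN tumours (SD 1.08) and Oas1g in KO tumours (SD 1.13).

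Irf1 had a second, dim probe, chosen for mention after its values were seen, that was above background on 4 of 7 DEN tumours and on no other array. On the brighter probe KO and DEN tumours differed by -0.02 ± 0.20 (adjusted p = 0.95 by limma over all probes).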
